A study of Homo sapiens with 18 samples.

Results

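The enzymes that make serine and that carry its one-carbon unit through the folate cycle were followed across 18 RNA sequencing libraries of human myeloid cell lines. The members are 10 genes, taken by name: PHGDH, PSAT1 and PSPH of serine synthesis, SHMT1, MTHFD1 and ALDH1L1 of the cytosolic folate cycle, and SHMT2, MTHFD2, MTHFD1L and ALDH1L2 of the mitochondrial folate cycle. All 10 were found among the 18670 genes of the count table through their Ensembl identifiers. They were chosen with earlier results of these data known. A count of members called, set beside the share of all genes, is therefore a description and not a test.

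The study lowered the calcium-binding myeloid protein S100A9 in U937 cells, raised it in THP-1 cells, and treated THP-1 cells with Adavivint, a kinase inhibitor (CLK and DYRK families) that dampens Wnt signalling. Its stated aim was to describe how gene expression responds to each of these. U937 and THP-1 are established monocytic leukemia lines. Each of the 6 groups held 3 libraries, and depth ran between 38.4 and 84.4 M counts per library (M stands for 1e6).

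The U937 groups were shS100A9, in which a lentiviral knockdown lowered S100A9, and its own empty vector. The THP-1 groups were OES100A9+Ada and empty vector+Ada, both given 1 µM Adavivint for 36 hours, and OES100A9 and empty vector, both without the drug. OES100A9 stands for lentiviral overexpression of S100A9. Cells of all 6 groups, controls included, carried a lentivirus and had been selected with 2 µg/mL puromycin, begun 48 hours after transduction and lasting at least 24 hours. The genotype of the empty vector cells is given as WT. The labels name neither clones nor separate cultures behind the replicates, so every p-value here measures the spread between these libraries, which may be technical.

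Serine is made from a glycolytic intermediate in 3 steps, by PHGDH, PSAT1 and PSPH in that order. SHMT1 in the cytosol and SHMT2 in mitochondria split serine into glycine and a one-carbon unit bound to folate. Mitochondria oxidise that unit with MTHFD2 and release it as formate through MTHFD1L, cytosolic MTHFD1 takes formate up for purine and thymidylate synthesis, and ALDH1L1 and ALDH1L2 burn the unit to carbon dioxide in cytosol and mitochondria. MTHFD2 is known for its high level in proliferating and cancer cells, and ATF4, the transcription factor of the amino acid response, and MYC are known activators of several genes of the pathway.

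The genes lie apart from each other in the genome (GRCh38, GENCODE release 29). PHGDH (ENSG00000092621) is on chromosome 1 (119648411 to 119744226, plus strand), PSAT1 (ENSG00000135069) on chromosome 9 (78297143 to 78330093, plus strand), and PSPH (ENSG00000146733) on chromosome 7 (56011051 to 56051604, minus strand). SHMT1 (ENSG00000176974) is on chromosome 17 (18327860 to 18363563, minus strand), MTHFD1 (ENSG00000100714) on chromosome 14 (64388031 to 64463457, plus strand), and ALDH1L1 (ENSG00000144908) on chromosome 3 (126103562 to 126197994, minus strand). SHMT2 (ENSG00000182199) is on chromosome 12 (57229327 to 57234935, plus strand), and ALDH1L2 (ENSG00000136010) on the same chromosome (105019784 to 105084577, minus strand). MTHFD2 (ENSG00000065911) is on chromosome 2 (74198562 to 74217565, plus strand), and MTHFD1L (ENSG00000120254) on chromosome 6 (150865549 to 151101887, plus strand). All 10 are protein-coding, with 8 exons in the principal transcripts of PSPH and MTHFD2 and 28 in those of MTHFD1 and MTHFD1L.

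The promoters of MTHFD1L, MTHFD1 and MTHFD2 are shown because these 3 enzymes of the MTHFD family differed widely in their fall with Adavivint, described below. Each window, from RefSeq on GRCh38.p14, runs from 250 bases before to 50 after a transcription start. Capitals mark the E-box CACGTG, the letters bound by MYC, and the ATF4 composite element TGATGNAA, searched on both strands.
MTHFD1L, chr6:150866236-150866535, plus strand: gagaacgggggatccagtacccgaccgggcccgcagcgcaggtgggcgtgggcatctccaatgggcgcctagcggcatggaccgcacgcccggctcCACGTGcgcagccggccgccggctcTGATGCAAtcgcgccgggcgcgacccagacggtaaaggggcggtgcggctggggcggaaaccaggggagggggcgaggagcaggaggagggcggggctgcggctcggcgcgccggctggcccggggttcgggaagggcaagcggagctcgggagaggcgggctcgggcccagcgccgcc
MTHFD1, chr14:64388103-64388402, plus strand: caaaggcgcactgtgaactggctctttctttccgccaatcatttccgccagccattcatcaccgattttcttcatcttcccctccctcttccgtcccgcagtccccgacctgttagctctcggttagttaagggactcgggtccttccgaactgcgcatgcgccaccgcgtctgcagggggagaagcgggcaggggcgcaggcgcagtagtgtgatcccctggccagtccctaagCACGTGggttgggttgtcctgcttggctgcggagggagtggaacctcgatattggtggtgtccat
MTHFD2, chr2:74198365-74198664, plus strand: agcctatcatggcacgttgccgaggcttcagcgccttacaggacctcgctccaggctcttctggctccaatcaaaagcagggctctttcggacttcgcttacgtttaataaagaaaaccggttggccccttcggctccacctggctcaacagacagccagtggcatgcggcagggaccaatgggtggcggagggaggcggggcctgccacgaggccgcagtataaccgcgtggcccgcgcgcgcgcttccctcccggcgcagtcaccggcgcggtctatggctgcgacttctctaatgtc
RefSeq lists 4 starts for MTHFD1L, and the printed window held an E-box whose first base lay at -154 and, downstream of it, the ATF4 element TGATGCAA at -129, with no overlap. The same letters lay at -115 and -90, and at -1 and 25, from the next 2 starts, and the window of the start farther downstream (chr6:151006758-151007057) held neither. The MTHFD1 window held an E-box at -15 and no ATF4 element, and neither set of letters was in the MTHFD2 window. Of 35116 windows of this length in the genome, 7.26% held the E-box and 3.62% the ATF4 element. Windows were listed for 7 of the 10 members (11 windows), but not for PSPH, SHMT2 or ALDH1L2. The windows of PHGDH, PSAT1, SHMT1 and ALDH1L1 held neither motif. With the drug in OES100A9 cells MTHFD1L fell 22.1-fold, PSAT1 13.4-fold, MTHFD1 10.2-fold, PHGDH 5.62-fold, MTHFD2 2.13-fold and SHMT1 2.06-fold. ALDH1L1 did not pass the test described below. The part of these letters in the falls was not tested. A match is a run of letters and not a binding site, and no match says only that the letters are not in that window.

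S100A9 followed the knockdown and overexpression labels, and it was also higher with the drug. It had 0.217, 0.407 and 0.0600 counts per 1e6 counts of the library (CPM, scaled by TMM factors over all 18 libraries) in U937 shS100A9 cells, against 6.87, 4.54 and 7.13 CPM in U937 empty vector cells. In THP-1 cells it averaged 104.5 ± 5.18 CPM in OES100A9+Ada, 13.6 ± 1.11 CPM in empty vector+Ada, 28.4 ± 1.73 CPM in OES100A9 and 6.44 ± 2.72 CPM in empty vector (SD, n = 3 each). The knockdown passed edgeR's quasi-likelihood test with Benjamini-Hochberg adjustment (log2 fold change -4.79, SE 0.62, adjusted p = 0.0205). It did not pass in 4 of 6 leave-one-out fits, each without 1 library (without empty vector 1 or 3, or shS100A9 1 or 2). With the drug S100A9 rose 3.80-fold in OES100A9 cells (log2 fold change 1.93, SE 0.19, edgeR adjusted p = 2.48e-07). In empty vector cells S100A9 rose 2.16-fold with the drug (log2 fold change 1.11, SE 0.21, edgeR adjusted p = 1.74e-04). The part of this rise in the drug results below was not tested. Of 11 monocytic markers, 9 to 11 reached 1 CPM in every group, with sums of 904.0 to 1208 CPM in U937 libraries, 1460 to 1629 CPM in THP-1 libraries with the drug and 1196 to 1245 CPM in those without. Summed markers of erythroid, platelet, epithelial and stromal cells lay at or below 1.64 CPM in every library, and the lymphoid sum lay at 6.07 to 14.4 CPM. The part of these markers in the results below was not tested. In U937, shS100A9 3 and empty vector 2 were unlike their group mates: their chi-square per degree of freedom was 174.7 and 235.0 for shS100A9 3 and 141.1 and 148.5 for empty vector 2, against 7.43 to 39.0 for all other pairs.

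The members' levels spanned a wide range. Per kilobase of the principal transcript, empty vector THP-1 cells held 134.2 CPM of PSAT1, 125.0 of PHGDH and 124.1 of SHMT2. On the same per-length scale MTHFD1 stood at 77.4, MTHFD2 at 60.2, MTHFD1L at 30.3, PSPH at 24.1 and SHMT1 at 18.1 CPM per kilobase. ALDH1L2 stood at 1.36 and ALDH1L1 at 0.0689 CPM per kilobase. Thus the mitochondrial SHMT2 was the more abundant of the SHMT pair, and ALDH1L1, best known from liver and astrocytes, was close to undetected.

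**Figure D1:**
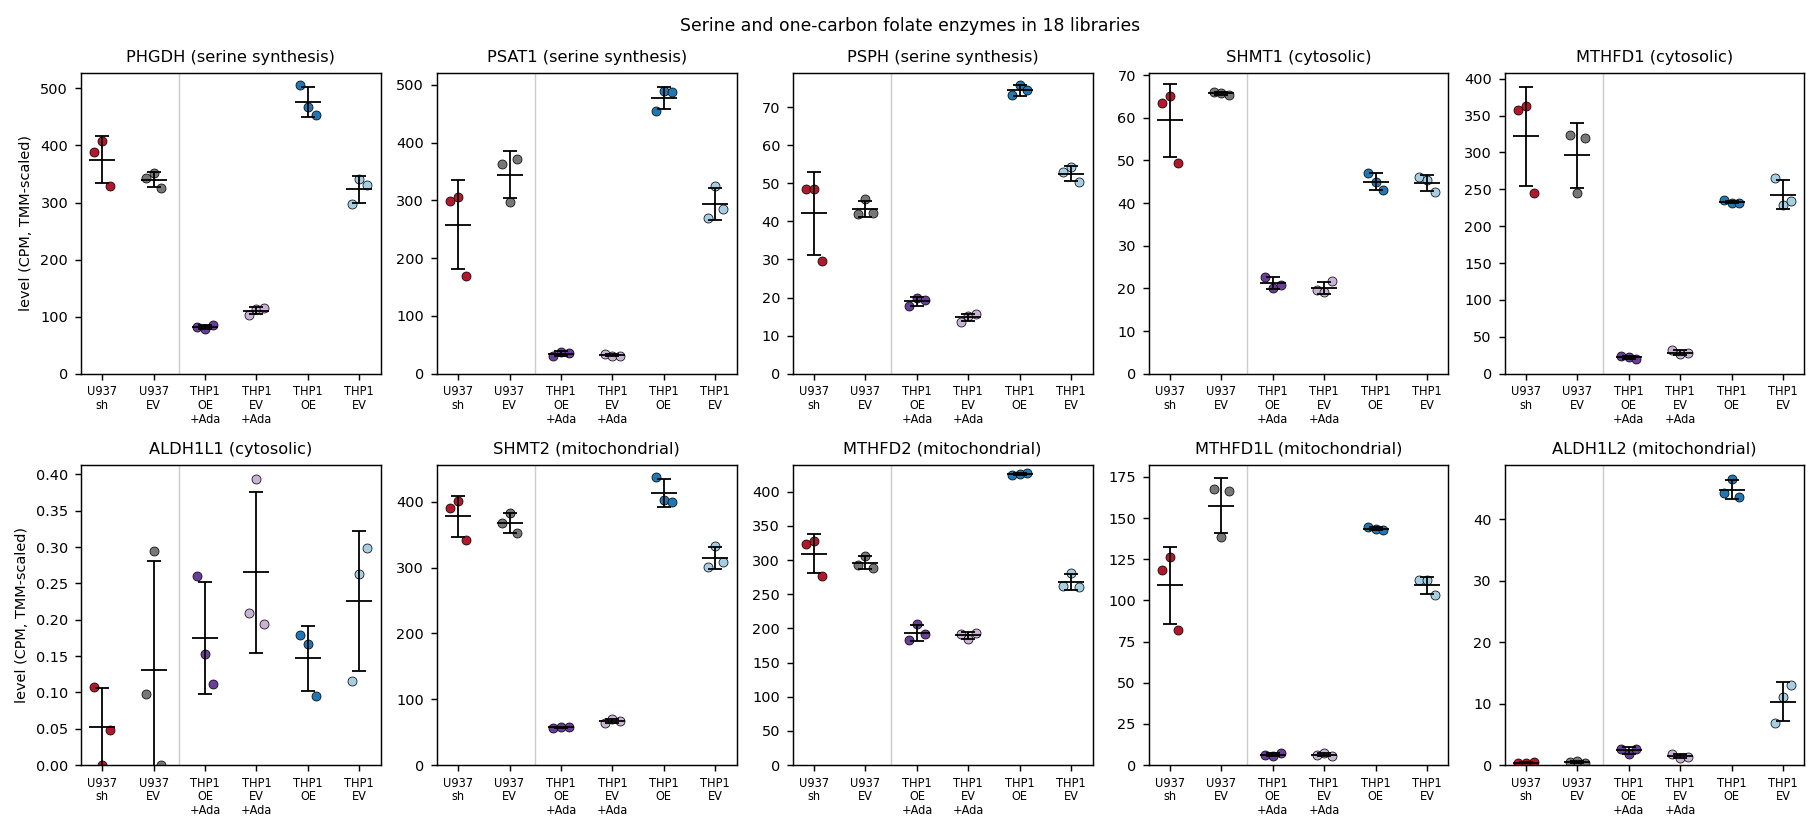
Levels of the 10 enzymes in CPM (vertical axes, linear and starting at 0) in 6 groups of 3 libraries: U937 shS100A9 (sh) and empty vector (EV), then THP-1 OES100A9 with Adavivint (OE+Ada), empty vector with Adavivint (EV+Ada), OES100A9 (OE) and empty vector (EV). Points are libraries and bars the mean ± SD; PSAT1, MTHFD1, SHMT2 and MTHFD1L stand far lower in the 6 libraries with the drug than in the other 12, MTHFD2 stays at 183.2 CPM or more, and ALDH1L2 peaks in OES100A9 cells.

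The knockdown comparison asked whether the enzymes respond to less S100A9 in U937 cells. None changed at an adjusted p below 0.05: 0 of the 9 members tested were higher and 0 lower in edgeR, and the same 0 and 0 in DESeq2. Over all 13016 genes tested, 0.230% were called higher and 1.54% lower at that adjusted threshold. At an unadjusted p below 0.05 no member was higher and 1, MTHFD1L, was lower. The share of all genes at the unadjusted threshold is not given here, so that count has no background beside it. The median log2 fold change of the 9 members was -0.05, against 0.00961 for all genes. ALDH1L1, with at most 15 counts in a U937 library, did not pass the filter on low counts. Its 0 counts in shS100A9 2 and in empty vector 3 allow up to 0.0459 and 0.0606 CPM.

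In the first step of serine synthesis, PHGDH had 388.9, 408.0 and 328.6 CPM in shS100A9 cells, against 343.2, 351.2 and 326.0 CPM in empty vector cells. The groups overlapped, with 2 knockdown libraries above all 3 controls. PSAT1 had 299.4, 305.7 and 168.8 CPM in shS100A9 cells, against 364.0, 298.2 and 372.6 CPM in empty vector cells. The libraries that stood apart, shS100A9 3 and empty vector 2, were the lowest of their groups. PSPH, which removes the phosphate in the last step, had 48.4, 48.4 and 29.6 CPM in shS100A9 cells, against 42.0, 45.8 and 42.2 CPM in empty vector cells.

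MTHFD1L, the formate-releasing enzyme, had 118.7, 126.3 and 82.3 CPM in shS100A9 cells, against 167.9, 138.3 and 166.2 CPM in empty vector cells. All 3 knockdown libraries lay below all 3 controls, and the log2 fold change of -0.54 (SE 0.18) did not pass in edgeR (adjusted p = 0.235). MTHFD1, its cytosolic relative, had 357.9, 363.6 and 244.9 CPM in shS100A9 cells, against 323.6, 245.4 and 320.2 CPM in empty vector cells. SHMT1 averaged 59.4 ± 8.58 CPM in shS100A9 cells and 65.7 ± 0.405 CPM in empty vector cells (SD, n = 3 each), without overlap but by a narrow gap. SHMT2 averaged 377.9 ± 31.5 CPM in shS100A9 cells and 367.4 ± 15.1 CPM in empty vector cells. MTHFD2 averaged 309.2 ± 28.7 CPM in shS100A9 cells and 296.2 ± 9.33 CPM in empty vector cells, and both genes' groups overlapped. ALDH1L2 was near the limit of detection in U937, with 20 to 37 counts in shS100A9 libraries and 17 to 33 in empty vector libraries.

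The U937 result depended on the pair of libraries that stood apart. Without both, an edgeR fit of 2 against 2 called 4 members higher and 2 lower. The higher ones were PHGDH (log2 fold change 0.24), PSPH (0.19), MTHFD1 (0.15) and MTHFD2 (0.15), all small, and the lower ones were PSAT1 (-0.29) and MTHFD1L (-0.46, adjusted p = 4.90e-04). The same fit called 1988 genes higher and 2308 lower of all genes, against 30 and 201 with all 6 libraries. A call alone was thus common in that fit, whose dropped libraries were picked for standing apart. Of the 41 other genes of the pathway (folate use, folate carriers, glycine cleavage, serine and glycine transport, methionine cycle), 35 were tested with all 6 libraries and none was called, while the fit without both libraries that stood apart called 4 higher and 9 lower. At an unadjusted p below 0.05, for which the share of all genes is not given here, 1 was higher and 6 lower. DESeq2 called 2 lower at the adjusted threshold. ATF4 averaged 396.2 ± 23.8 CPM in shS100A9 cells and 401.2 ± 51.6 CPM in empty vector cells. MYC had 388.8, 400.1 and 381.3 CPM in shS100A9 cells, against 414.2, 189.1 and 396.6 CPM in empty vector cells, the low control being the one that stood apart.

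The overexpression comparison asked the same of THP-1 cells with raised S100A9. All 3 serine synthesis genes and all 4 mitochondrial enzymes were higher in OES100A9 cells, and none of the 3 cytosolic enzymes passed the test. Thus 7 of 10 members were higher and 0 lower, where 14.9% of all 15403 genes tested were called higher and 13.0% lower. The median log2 fold change of the members was 0.45, against 0.02 for all genes. Each of the 7 calls held in all 6 leave-one-out fits.

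PHGDH had 505.3, 467.8 and 454.1 CPM in OES100A9 cells, against 297.0, 342.1 and 330.3 CPM in empty vector cells. The rise was 1.48-fold (log2 0.56 ± 0.06 SE, edgeR adjusted p = 5.52e-05), and the groups did not overlap. PSAT1, the aminotransferase of the second step, had 455.7, 489.8 and 487.9 CPM in OES100A9 cells, against 270.3, 324.9 and 286.0 CPM in empty vector cells. It rose 1.63-fold (log2 fold change 0.71, SE 0.08, adjusted p = 7.37e-05), also without overlap. PSPH had 73.1, 75.8 and 74.5 CPM in OES100A9 cells, against 53.0, 54.2 and 50.4 CPM in empty vector cells, a rise of 1.42-fold (adjusted p = 1.92e-04).

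In mitochondria, SHMT2 had 437.7, 403.1 and 399.4 CPM in OES100A9 cells, against 301.4, 333.6 and 309.2 CPM in empty vector cells. All 3 overexpressing libraries were above all 3 controls, a rise of 1.32-fold (log2 fold change 0.40, SE 0.05, adjusted p = 1.86e-04). MTHFD2, which oxidises the one-carbon unit, had 424.4, 426.6 and 427.4 CPM in OES100A9 cells, against 262.3, 281.3 and 261.2 CPM in empty vector cells. It rose 1.59-fold (log2 fold change 0.67, SE 0.05, adjusted p = 4.24e-06). MTHFD1L had 144.8, 143.6 and 142.5 CPM in OES100A9 cells, against 112.2, 112.2 and 103.1 CPM in empty vector cells, and rose 1.32-fold (adjusted p = 0.00341). ALDH1L2, which makes NADPH as it burns the one-carbon unit, had 44.2, 46.6 and 43.6 CPM in OES100A9 cells, against 6.85, 11.0 and 13.0 CPM in empty vector cells. It rose 4.39-fold (log2 fold change 2.13, SE 0.19, adjusted p = 1.72e-05), and its empty vector libraries spread more than its overexpressing ones.

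No cytosolic enzyme passed the test. SHMT1 had 47.1, 44.9 and 43.0 CPM in OES100A9 cells, against 46.0, 45.5 and 42.5 CPM in empty vector cells, with a log2 fold change of 0.01 (95% interval -0.12 to 0.15). MTHFD1 had 235.1, 231.8 and 232.0 CPM in OES100A9 cells, against 265.3, 228.5 and 234.3 CPM in empty vector cells. Its log2 fold change was -0.06 (interval -0.21 to 0.10), and both genes' groups overlapped. ALDH1L1 had 9, 14 and 6 counts in OES100A9 libraries, against 7, 13 and 15 counts in empty vector libraries, too few to show a difference at this depth.

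**Figure D2:**
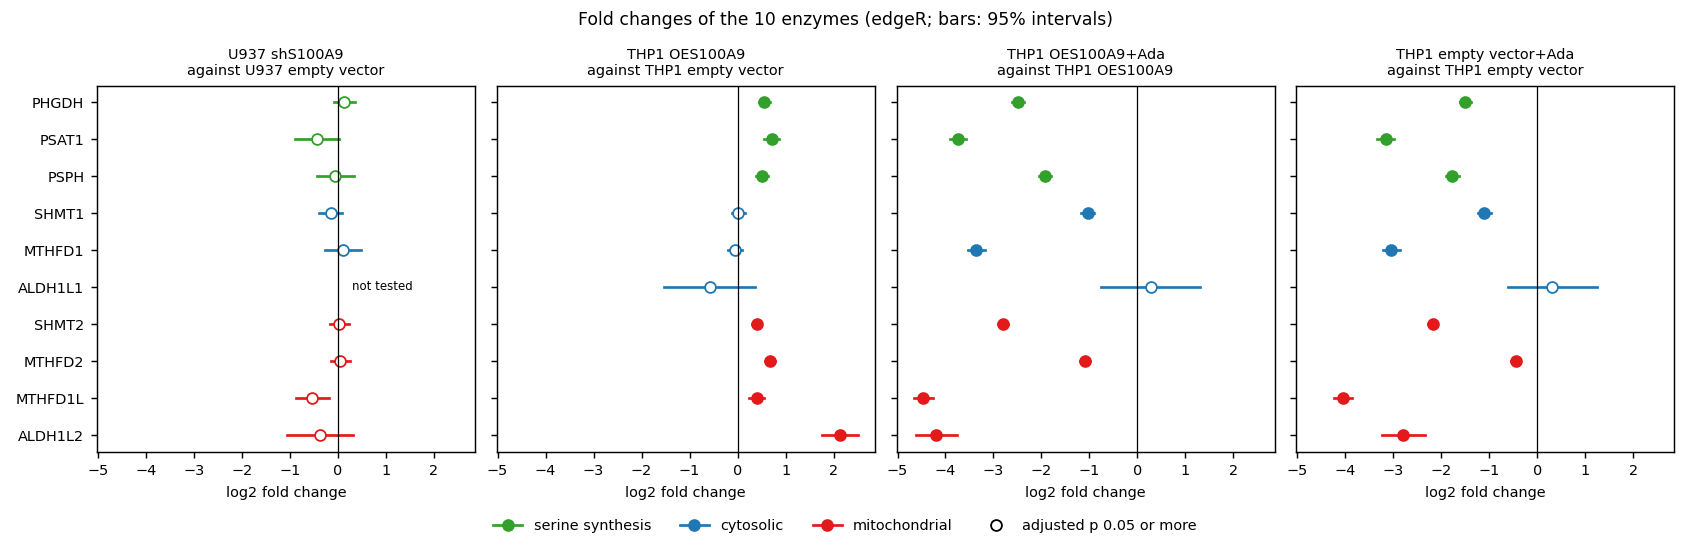
Log2 fold changes of the 10 enzymes (horizontal axis, tested over control) in 4 comparisons, with bars of 95% intervals, coloured by serine synthesis, cytosol and mitochondria; open points did not pass the test. In OES100A9 against empty vector the 7 serine synthesis and mitochondrial enzymes lie right of 0 and the cytosolic ones do not pass; with Adavivint 9 of 10 lie left of 0 with either vector; in U937 no point is filled.

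Among the 41 other genes of the pathway, 38 were tested in THP-1 cells. Of these 38, 5 were higher and 5 lower in OES100A9 cells, near the shares over all genes (14.9% higher and 13.0% lower). Their median log2 fold change was 0.07. The higher count was 2 without OES100A9 2 and with the 2 groups alone, and 3 without OES100A9 3 or empty vector 1; the lower count was 3 without OES100A9 2. AHCYL1, a homologue of the enzyme that clears homocysteine's precursor, rose 1.31-fold to 194.5 ± 0.638 CPM, against 149.1 ± 16.9 CPM in empty vector cells. The glycine transporter gene SLC6A9 rose 4.33-fold but at a low level, 0.915 ± 0.0553 against 0.214 ± 0.136 CPM, with 6 to 18 counts in an empty vector library. MTR, methionine synthase, rose 1.12-fold (adjusted p = 0.0167 in edgeR), a call lost without OES100A9 2 or 3. MTRR, which reactivates methionine synthase, fell 1.17-fold. SLC19A1, the reduced folate carrier, fell 1.33-fold, and its call was lost without OES100A9 2 (log2 fold change -0.53 to -0.24 in 6 leave-one-out fits). ATF4 rose 1.20-fold, to 460.1 ± 16.3 CPM in OES100A9 cells, against 384.1 ± 29.7 CPM in empty vector cells (adjusted p = 0.00320), while MYC averaged 324.0 ± 10.4 CPM in OES100A9 cells and 352.1 ± 15.5 CPM in empty vector cells and did not pass (adjusted p = 0.371).

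The drug comparisons asked what Adavivint did to each kind of THP-1 cell. With either vector 9 of the 10 members fell and 0 rose, the exception being ALDH1L1. The drug changed most genes: in OES100A9 cells 43.4% of all genes were called higher and 41.3% lower, and in empty vector cells 44.2% were called higher and 41.1% lower, so a call alone was common. The median log2 fold change of the members was -2.65 in OES100A9 cells and -1.98 in empty vector cells, against 0.04 and 0.06 for all genes. All 9 calls with each vector held in all 6 leave-one-out fits. The drug libraries were also the shallower ones, at 38.4 to 45.3 M counts, against 49.7 to 84.4 M in THP-1 libraries without it; its part in the result was not tested. The 10 members together made up 439.0 ± 13.2 CPM in OES100A9+Ada, 471.0 ± 6.67 CPM in empty vector+Ada, 2334 ± 31.7 CPM in OES100A9 and 1659 ± 64.7 CPM in empty vector cells (SD, n = 3 each). CPM is a share of the sequenced RNA, and in bulk RNA a smaller number of expressing cells and less RNA per cell cannot be told apart.

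MTHFD1L fell the most of the 9 in log2 terms. It had 6.19, 5.57 and 7.07 CPM in OES100A9+Ada, against 144.8, 143.6 and 142.5 CPM in OES100A9, and fell 22.1-fold (log2 -4.47 ± 0.10 SE, edgeR adjusted p = 1.04e-13). It had 6.21, 7.42 and 5.49 CPM in empty vector+Ada, against 112.2, 112.2 and 103.1 CPM in empty vector, and fell 16.6-fold (log2 fold change -4.05, SE 0.10, adjusted p = 1.95e-13). With the empty vector MTHFD2 fell the least of the 9, and with OES100A9 only SHMT1 (2.06-fold) fell less. MTHFD2 had 183.2, 206.4 and 191.7 CPM in OES100A9+Ada, against 424.4, 426.6 and 427.4 CPM in OES100A9, and fell 2.13-fold (log2 fold change -1.09, SE 0.05, adjusted p = 6.68e-11). With the empty vector it had 192.5, 184.5 and 193.7 CPM with the drug, against 262.3, 281.3 and 261.2 CPM without it, and fell 1.36-fold (log2 fold change -0.45, SE 0.05, adjusted p = 1.14e-06). Per kilobase, MTHFD2 then stood at 43.5 CPM in OES100A9+Ada and 42.7 CPM in empty vector+Ada, beside 31.7 and 42.7 CPM for PHGDH.

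SHMT2 fell to 57.4 ± 0.539 CPM in OES100A9+Ada, against 413.4 ± 21.1 CPM in OES100A9, a fall of 6.98-fold. It fell to 67.0 ± 3.04 CPM in empty vector+Ada, against 314.7 ± 16.8 CPM in empty vector, 4.54-fold. ALDH1L2 had 2.68, 1.78 and 2.65 CPM in OES100A9+Ada, against 44.2, 46.6 and 43.6 CPM in OES100A9, and fell 18.3-fold (log2 fold change -4.19, SE 0.22, adjusted p = 2.62e-10). It had 1.81, 1.16 and 1.31 CPM in empty vector+Ada, against 6.85, 11.0 and 13.0 CPM in empty vector, 6.94-fold lower with the drug. None of these groups overlapped.

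Of the serine synthesis genes PSAT1 fell the most. It had 30.4, 37.8 and 35.9 CPM in OES100A9+Ada, against 455.7, 489.8 and 487.9 CPM in OES100A9, and fell 13.4-fold. With the empty vector it had 33.5, 30.5 and 31.4 CPM with the drug, against 270.3, 324.9 and 286.0 CPM without, 8.93-fold lower. PHGDH had 81.4, 79.0 and 85.9 CPM in OES100A9+Ada, against 505.3, 467.8 and 454.1 CPM in OES100A9, a fall of 5.62-fold. It had 103.1, 112.7 and 115.1 CPM in empty vector+Ada, against 297.0, 342.1 and 330.3 CPM in empty vector, a fall of 2.83-fold. PSPH fell 3.80-fold with OES100A9, to 19.0 ± 1.15 against 74.4 ± 1.35 CPM, and 3.43-fold with the empty vector, to 14.8 ± 1.01 against 52.5 ± 1.95 CPM.

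In the cytosol MTHFD1 fell about as far as PSAT1 and SHMT1 far less. MTHFD1 had 23.4, 22.6 and 20.2 CPM in OES100A9+Ada, against 235.1, 231.8 and 232.0 CPM in OES100A9, 10.2-fold lower with the drug. It had 31.9, 26.1 and 27.8 CPM in empty vector+Ada, against 265.3, 228.5 and 234.3 CPM in empty vector, 8.21-fold lower. SHMT1 fell 2.06-fold with OES100A9 (21.2 ± 1.39 against 45.0 ± 2.02 CPM) and 2.14-fold with the empty vector (20.1 ± 1.37 against 44.7 ± 1.88 CPM). ALDH1L1 had 5 to 18 counts in the 6 libraries with the drug, against 6 to 15 counts in the 6 without, and passed with neither vector (adjusted p = 0.633 in OES100A9 cells and 0.553 in empty vector cells).

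**Figure D3:**
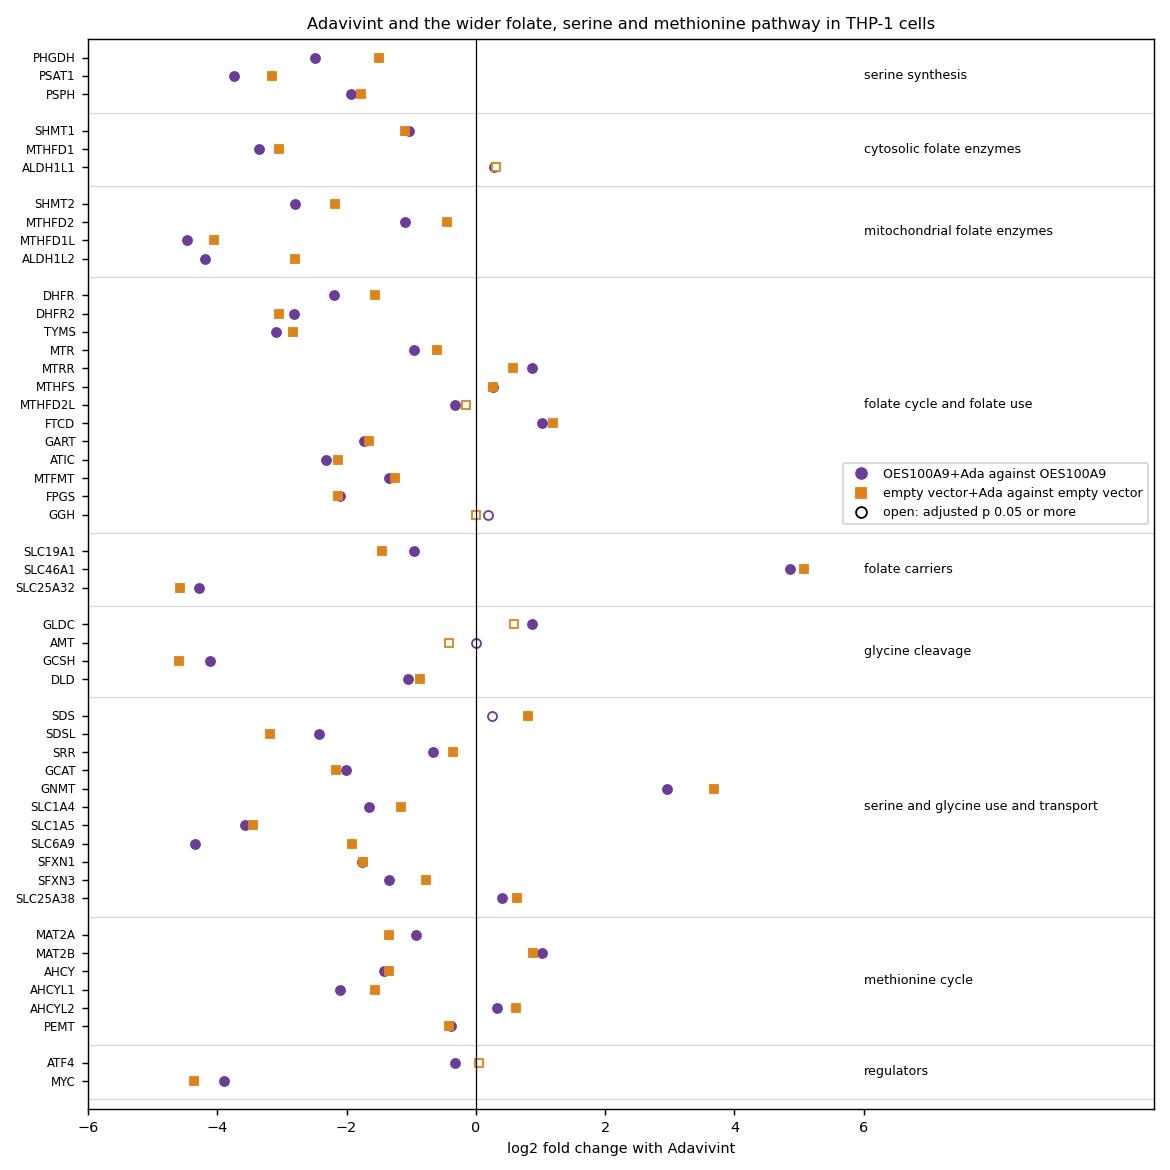
Log2 fold change with Adavivint (horizontal axis) for the 10 enzymes, all but 1 of the 38 other tested genes of the pathway and the regulators ATF4 and MYC, in OES100A9 cells (circles) and in empty vector cells (squares); open symbols did not pass the test. Most symbols lie left of 0, with SLC46A1 and GNMT far to the right, and ATF4 lies near 0 while MYC lies near -4.

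The wider pathway moved in both directions. Of the 38 tested genes, 10 rose and 25 fell in OES100A9 cells, where 43.4% of all genes were called higher and 41.3% lower. In empty vector cells 10 rose and 24 fell (44.2% and 41.1% over all genes), with a median log2 fold change of -1.02. The folate cycle and folate use list (14 tested) had 4 higher and 9 lower in OES100A9 cells and 4 higher and 8 lower in empty vector cells. GART, a purine synthesis enzyme that uses the folate-bound unit, fell 3.31-fold in OES100A9 cells and 3.17-fold in empty vector cells. The mitochondrial folate carrier SLC25A32 had 3.64, 3.58 and 3.92 CPM in OES100A9+Ada, against 69.2, 76.2 and 79.1 CPM in OES100A9. With the empty vector SLC25A32 had 4.28, 3.12 and 3.32 CPM with the drug, against 99.8, 88.1 and 76.9 CPM without, and fell 24.0-fold. The proton-coupled folate carrier SLC46A1 went the other way, with 43.4, 32.8 and 40.7 CPM in OES100A9+Ada, against 1.09, 2.03 and 0.876 CPM in OES100A9. In empty vector cells SLC46A1 rose 33.7-fold, to 39.3 ± 1.62 CPM with the drug, against 1.17 ± 0.653 CPM without. The glutamine and serine transporter SLC1A5 fell 11.9-fold in OES100A9 cells and 11.0-fold in empty vector cells.

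GNMT, which methylates glycine, rose 7.79-fold in OES100A9 cells and 12.9-fold in empty vector cells. MAT2B, the regulatory subunit of methionine adenosyltransferase, rose 2.03-fold in OES100A9 cells and 1.84-fold in empty vector cells. AHCYL1 fell 4.31-fold in OES100A9 cells. The regulators parted: MYC fell 14.9-fold in OES100A9 cells (21.1 ± 3.58 against 324.0 ± 10.4 CPM) and 20.7-fold in empty vector cells (16.5 ± 1.70 against 352.1 ± 15.5 CPM). ATF4 fell 1.25-fold in OES100A9 cells (356.9 ± 12.6 against 460.1 ± 16.3 CPM). In empty vector cells ATF4 stood at 384.4 ± 7.14 CPM with the drug and 384.1 ± 29.7 CPM without, and did not pass (adjusted p = 0.388).

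Whether the drug acted differently with S100A9 raised was tested by the interaction, the log2 fold change with the drug in OES100A9 cells minus that in empty vector cells. It was below 0 for 6 of the 10 members and above 0 for none at an adjusted p below 0.05, where 8.04% of all genes were called above 0 and 11.2% below. Over all genes that was 1239 above and 1729 below, or 961 and 2379 with library totals in place of TMM factors. The median over the members was -0.50, against -0.02 for all genes. The 6 members were 2 of serine synthesis, PHGDH (-0.99, SE 0.08, adjusted p = 4.60e-05 in edgeR) and PSAT1 (-0.58, SE 0.11, adjusted p = 0.00453), and all 4 mitochondrial enzymes. Of those 4, SHMT2 had -0.62 (SE 0.07), MTHFD2 -0.65 (SE 0.07) and ALDH1L2 -1.40 (SE 0.32, adjusted p = 0.00971). These 5 calls held in all 12 leave-one-out fits. MTHFD1L had -0.42 (SE 0.14, adjusted p = 0.0461) and kept its call in 3 of the 12 fits, those without empty vector 1, empty vector+Ada 3 or OES100A9+Ada 3. No cytosolic enzyme passed: SHMT1 had 0.06 (SE 0.10), MTHFD1 -0.32 (SE 0.12, adjusted p = 0.0709) and ALDH1L1 -0.03 (SE 0.74). MTHFD1L also missed the threshold in edgeR when DESeq2's size factors were used (adjusted p = 0.0535), and MTHFD1 passed without empty vector 1, with library totals (-0.39, adjusted p = 0.0206) and in DESeq2 (adjusted p = 0.0406).

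Under the drug 4 of the 10 members differed between the vectors. In OES100A9+Ada against empty vector+Ada 1 member was higher and 3 lower, where 3.69% of all genes were called higher and 4.80% lower. Over all genes that was 569 higher and 740 lower, but 393 and 1555 when edgeR scaled by library totals. The median log2 fold change was 0.00460 for the members and -0.00304 for all genes. PSPH was 1.28-fold higher, with 17.7, 19.9 and 19.3 CPM in OES100A9+Ada, against 13.7, 15.1 and 15.7 CPM in empty vector+Ada (adjusted p = 0.00762 in edgeR). PHGDH was 1.34-fold lower, with 81.4, 79.0 and 85.9 CPM in OES100A9+Ada, against 103.1, 112.7 and 115.1 CPM in empty vector+Ada (adjusted p = 0.00157). Both calls held in all 6 leave-one-out fits, and neither gene's groups overlapped. MTHFD1 was 1.30-fold lower (22.0 ± 1.67 against 28.6 ± 2.99 CPM, adjusted p = 0.0187) and lost its call without empty vector+Ada 1 or OES100A9+Ada 2 or 3. SHMT2 was 1.17-fold lower (57.4 ± 0.539 against 67.0 ± 3.04 CPM, adjusted p = 0.0187) and lost its call without empty vector+Ada 2 or any 1 of the OES100A9+Ada libraries.

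The remaining members did not pass here. MTHFD2 had a log2 fold change of 0.03 (95% interval -0.07 to 0.13), PSAT1 0.13, SHMT1 0.07 and MTHFD1L -0.02. ALDH1L2 stood at 2.37 ± 0.513 CPM in OES100A9+Ada and 1.43 ± 0.344 CPM in empty vector+Ada (adjusted p = 0.0926). Of the other 38 pathway genes 3 were higher and 3 lower in this comparison (3.69% and 4.80% over all genes). An interaction above 0 was called for 3 and below 0 for 7 (8.04% and 11.2% over all genes). The interaction counts were 5 above 0 in DESeq2, 1 above 0 without empty vector+Ada 3 or OES100A9+Ada 3, and 4 below 0 without empty vector+Ada 2. The genes higher in OES100A9+Ada were AMT (1.80-fold), GGH (1.37-fold) and MAT2A (1.15-fold), and the lower ones MTR (1.15-fold), AHCYL2 (1.18-fold) and SFXN3 (1.25-fold). Each of these 6 kept its call in at most 2 of 6 leave-one-out fits, and MAT2A in 0.

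The balance between compartments was measured within each library as the log2 ratio of the counts of a mitochondrial enzyme to its cytosolic relative, which does not depend on scaling between libraries. Drug labels were permuted within each vector, and vector labels within each drug state (exact two-sided permutation tests over 400 arrangements, smallest p 0.005, adjusted over 8 tests). Adavivint moved the pairs in opposite directions. The MTHFD2/MTHFD1 ratio rose by 2.43 on the log2 scale, or 5.38-fold (exact permutation, adjusted p = 0.00667). It averaged 3.14 ± 0.15 in OES100A9+Ada, 2.74 ± 0.13 in empty vector+Ada, 0.87 ± 0.02 in OES100A9 and 0.15 ± 0.16 in empty vector (SD, n = 3 each). Every library with the drug lay above every library without it.

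The SHMT2/SHMT1 ratio fell by 1.42, or 2.68-fold (exact permutation, adjusted p = 0.00667). It averaged 1.44 ± 0.11 in OES100A9+Ada, 1.74 ± 0.13 in empty vector+Ada, 3.20 ± 0.03 in OES100A9 and 2.82 ± 0.09 in empty vector. The MTHFD1L/MTHFD1 ratio fell by 1.07, or 2.10-fold, and the ALDH1L2/ALDH1L1 ratio fell by 3.79, or 13.8-fold (exact permutation, adjusted p = 0.00667 each). That last ratio rests on 5 to 18 counts of ALDH1L1 per THP-1 library.

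**Figure D4:**
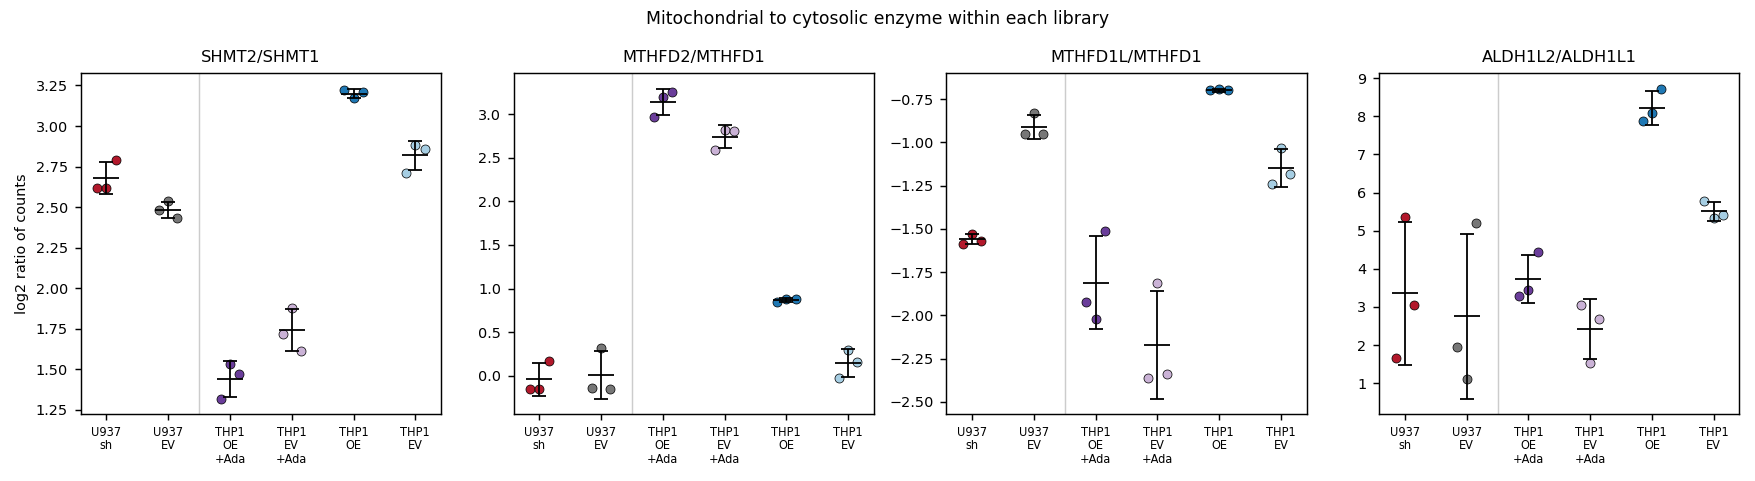
Log2 ratio of the counts of a mitochondrial enzyme to its cytosolic relative within each library (vertical axes, not starting at 0), for 4 enzyme pairs in the 6 groups, labelled sh, EV, OE and Ada as in the plot of levels. Points are libraries and bars the mean ± SD; with Adavivint MTHFD2/MTHFD1 lies above 2.5 in all 6 libraries while the other 3 ratios lie below those of the untreated THP-1 libraries.

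Averaged over both drug states, overexpression raised 3 of the 4 ratios. MTHFD2/MTHFD1 rose by 0.56 and ALDH1L2/ALDH1L1 by 2.01 (exact permutation, adjusted p = 0.00667 each), and MTHFD1L/MTHFD1 by 0.40 (adjusted p = 0.0171). With the drug MTHFD1L/MTHFD1 overlapped between the vectors, at -1.92, -2.02 and -1.51 in OES100A9+Ada and -2.36, -1.81 and -2.34 in empty vector+Ada. The MTHFD2/MTHFD1 and ALDH1L2/ALDH1L1 ratios did not overlap there. Under the drug MTHFD2 (log2 fold change 0.03) and MTHFD1L (-0.02) hardly differed between vectors. MTHFD1 was lower (-0.38), a call kept in 3 of 6 leave-one-out fits. SHMT2/SHMT1 did not pass (0.04, exact permutation, adjusted p = 0.720): it was higher in OES100A9 than in empty vector without the drug, 3.20 against 2.82, and lower with the drug, 1.44 against 1.74. In U937, where 3 against 3 libraries cannot go below p = 0.10, MTHFD1L/MTHFD1 averaged -1.56 ± 0.03 in shS100A9 and -0.91 ± 0.07 in empty vector, without overlap (exact permutation p = 0.10). The libraries that stood apart lay close to their groups on that ratio, at -1.57 for shS100A9 3 and -0.83 for empty vector 2. SHMT2/SHMT1 averaged 2.68 ± 0.10 in shS100A9 and 2.48 ± 0.05 in empty vector (exact permutation p = 0.10). The ratios MTHFD2/MTHFD1 and ALDH1L2/ALDH1L1 overlapped between the U937 groups (exact permutation p = 0.700 each).

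Between the lines without knockdown, overexpression or drug, U937 empty vector against THP-1 empty vector, 2 members were higher and 2 lower in U937, where 11.4% of all 13695 genes tested were called higher and 14.8% lower. The median log2 difference of the members was 0.18, against -0.02 for all genes. SHMT1 was 1.47-fold higher in U937 (65.7 ± 0.405 against 44.7 ± 1.88 CPM) and MTHFD1L 1.44-fold higher (157.5 ± 16.6 against 109.2 ± 5.23 CPM, adjusted p = 0.00808 in edgeR). ALDH1L2 was 21.3-fold lower in U937, at 0.416, 0.648 and 0.375 CPM, against 6.85, 11.0 and 13.0 CPM in THP-1 (log2 difference -4.41, SE 0.34, adjusted p = 2.23e-04). PSPH was 1.22-fold lower (adjusted p = 0.0353), which held in 1 of 6 leave-one-out fits, the one without U937 empty vector 2. Without that library, which stood apart, 5 members were higher, PSAT1 (0.32), MTHFD1 (0.40) and SHMT2 (0.19) joining the other pair. The same fit called 2746 genes higher and 3365 lower of all genes, against 1557 and 2026 with all 6 libraries. Calls were thus more common in that fit over all genes too. Of 36 other pathway genes tested 7 were higher and 1 lower; the higher count was 12 without U937 empty vector 2 and 3 or 4 without any other single library. SLC46A1 was 8.52-fold, SLC25A38 1.64-fold and AHCY 1.61-fold higher, and GGH, which trims stored folate, had 0 counts in the 3 U937 libraries against 8.41 ± 0.691 CPM in THP-1, at least 394.6-fold lower with a floor of 3 counts over the group. Line, transduction and library preparation cannot be told apart in this comparison.

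The order of the groups differed between members. By mean CPM, OES100A9 was the highest group for PHGDH, PSAT1, PSPH, SHMT2, MTHFD2 and ALDH1L2, and its libraries did not overlap those of the next group except for SHMT2, where U937 shS100A9 (377.9 CPM) overlapped it (413.4 CPM). For the other cytosolic and mitochondrial genes but ALDH1L1 a U937 group was highest: empty vector for SHMT1 and MTHFD1L, and shS100A9 for MTHFD1. For MTHFD1L, U937 empty vector (157.5 CPM) overlapped OES100A9 (143.6 CPM), and U937 shS100A9 stood lower, at 109.1 CPM. For MTHFD1, U937 shS100A9 (322.1 CPM) overlapped U937 empty vector (296.4 CPM). The drug groups were the lowest for all members but ALDH1L1 and ALDH1L2, and ALDH1L2 was lower in both U937 groups than in drug-treated THP-1 cells. The share of all genes with the same order of groups was not computed, so these orders only describe the members. Across the 18 libraries the log2(CPM + 1) of PHGDH was closest to that of SHMT2 (Pearson r = 0.990), ANP32B (0.989) and IARS1 (0.988) of 10585 genes compared. MTHFD2 was closest to ADM2 (0.968), CARS1 (0.947) and PKD1 (0.945), and ALDH1L2 to VAT1L (0.971), KIF26B (0.963) and KCTD1 (0.955). These correlations describe libraries that share line, vector and drug.

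Neighbouring and related genes limit some values, since strandedness of the counting was not given in the sources used here. SMCR8 overlaps exons of SHMT1 on the opposite strand and moved the other way, at 238.4 ± 8.50 CPM in OES100A9+Ada, 211.8 ± 4.47 in empty vector+Ada, 86.3 ± 5.50 in OES100A9 and 93.1 ± 4.10 CPM in empty vector, and the part of shared reads in the SHMT1 values was not tested. NOPCHAP1 overlaps exons of ALDH1L2 on the opposite strand and stood at 5.42 ± 0.431 CPM in OES100A9+Ada, 7.36 ± 0.411 in empty vector+Ada, 18.6 ± 1.17 in OES100A9 and 18.3 ± 0.677 CPM in empty vector. NOPCHAP1 was thus lower with the drug, as ALDH1L2 was. The part of shared reads in the ALDH1L2 values was not tested in any comparison. ZBTB25 overlaps MTHFD1 (8.03 ± 0.265 CPM in OES100A9+Ada, 7.40 ± 0.385 in empty vector+Ada, 18.6 ± 0.926 in OES100A9 and 14.5 ± 0.953 CPM in empty vector), NDUFA4L2 overlaps SHMT2 (at most 8.13 CPM on average in a group), and SLC4A5 and ENSG00000264324 overlap MTHFD2 (at most 7.26 and 5.17 CPM). Processed pseudogenes are annotated for MTHFD2 (7), PSAT1 (4), MTHFD1 and SHMT1, and an unprocessed one for PSPH, so some reads of these genes may have been assigned elsewhere.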

How the data were processed

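RNA sequencing was deposited as 1 table of 18670 Ensembl genes with a column of read counts for each of the 18 libraries. The authors deposited the counts as whole numbers without normalization. HISAT2 2.0.4 is named per the submitters' processing notes; counter, genome build, annotation and strandedness were not given in the sources used here. A name table gave symbols for 18642 genes, and 28 had none. Positions and transcript lengths came from GENCODE 29.

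Groups came from the sample titles. The U937 fit used 6 libraries (13016 genes tested) and the THP-1 fit all 12 (15403 genes); the comparison of the lines used 6 empty vector libraries (13695 genes). Genes were tested with edgeR 4.0.16 in R 4.3.3 (TMM factors, filterByExpr, quasi-likelihood F test), with Benjamini-Hochberg adjustment over all genes, and called at an adjusted p below 0.05. The SE follows from the F statistic (fold change on the log2 scale over the root of F), and 95% intervals are 1.96 SE each way. CPM used TMM factors over all 18 libraries, and CPM per kilobase the length of the principal transcript. Ratios of enzyme pairs used counts plus 0.5 within a library. Totals of 38.4 to 84.4 M counts (M stands for 1e6) limit precision for genes of few counts, among them ALDH1L1, ALDH1L2 in U937, SLC6A9 and S100A9 in shS100A9 cells; a floor is 3 counts and covers counting error alone. Chi-square tests of replicate pairs showed no library deposited more than once within its group. Pairs of libraries from different groups were not tested in this way. Scripts were tested on simulated data.

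Named were the 10 members and S100A9, ATF4 and MYC, though not each of them in every comparison. Among 41 other genes of the pathway, up to 3 called genes per direction were named by smallest p. For PHGDH, MTHFD2 and ALDH1L2 the 3 genes of at least 5 CPM with the closest pattern were also named. Single values of 1 pathway gene and 1 marker are not reported here. Members and lists were chosen with earlier results of these data known. Alternatives were DESeq2 1.42.0, DESeq2 size factors, library totals, no filter, 1 CPM in 3 libraries, 2 groups alone, a replicate block, a pseudocount of 5, and fits without single libraries or without those that stood apart.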

Additional observations from a re-analysis of the deposited data

Results flagged for a closer look

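The effect of Adavivint differed between OES100A9 and empty vector cells for 6 of the 10 enzymes, by the test of the interaction in edgeR (log2 fold change with the drug in OES100A9 cells minus that in empty vector cells). The difference was -0.99 for PHGDH, -0.58 for PSAT1, -0.62 for SHMT2, -0.65 for MTHFD2, -0.42 for MTHFD1L and -1.40 for ALDH1L2, so each fell further where S100A9 had been raised. All 6 also stood higher in OES100A9 cells before the drug, and the interaction shares those libraries with that comparison. MTHFD1L has the weakest call of the 6 (adjusted p = 0.0461, kept in 3 of 12 fits that left out 1 library).

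Among the other genes of the pathway the difference was below 0 for AHCYL1 (-0.55, SE 0.09), SFXN3 (-0.56, SE 0.11) and MTR (-0.36, SE 0.06), all kept in the 12 fits that left out 1 library. SFXN3 encodes a mitochondrial serine transporter of the sideroflexin family. The difference was above 0 for MAT2A (0.42, SE 0.08, kept in 12 of 12 fits), MTRR (0.29, SE 0.08, kept in 10) and the reduced folate carrier SLC19A1 (0.49, SE 0.16, adjusted p = 0.0441, kept in 2 of 12 fits).

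The regulators differed in opposite directions: ATF4 by -0.37 (SE 0.08, adjusted p = 0.00569, kept in 12 of 12 fits) and MYC by 0.47 (SE 0.14, adjusted p = 0.0304, kept in 4 of 12 fits).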

How the results depend on the processing

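The 7 higher calls of OES100A9 against empty vector and the 9 lower calls of each drug comparison kept their direction and side of the threshold under every alternative run. In U937, dropping both libraries that stood apart gave 4 members higher and 2 lower against 0 and 0, with PSPH at 0.19 against -0.05; over all genes the counts were 30 higher and 201 lower, but 272 and 607 in DESeq2, 0 and 3 with the replicate block, and 1988 and 2308 without both. In OES100A9+Ada against empty vector+Ada, 569 genes were higher and 740 lower, with 988 and 1028 in DESeq2, 973 and 863 with the 2 groups alone, and 393 and 1555 with library totals. Between the lines, members higher in U937 were 5 without the library that stood apart, and members lower were 1 with library totals, with no filter and with the replicate block; over all genes 1557 were higher and 2026 lower, or 2746 and 3365 without that library.

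The replicate block was an alternative only. Deviations of same-numbered libraries correlated between -0.61 and 0.41, and between -0.17 and 0.11 among the THP-1 groups. Both ends of the wider range came from pairs with a U937 group, and the libraries that stood apart were from U937. The range thus cannot decide whether the numbers pair samples. With the replicate block the MTHFD1L/MTHFD1 ratio under overexpression stayed at 0.40 with an adjusted p of 0.0714 (exact permutation). The interaction of MTHFD1L (-0.41) no longer passed and that of MTHFD1 (-0.32) did, and that of ALDH1L1 turned to 0.04.

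Values near 0 changed sign: SHMT1 in OES100A9 against empty vector (-0.0050 with 2 groups alone), and with library totals MTHFD2 in OES100A9+Ada against empty vector+Ada (-0.03) and the SHMT1 interaction (-0.0046). With 1 library left out, U937 values ran between -0.16 and 0.15 for PSPH, -0.01 and 0.27 for MTHFD1, -0.01 and 0.10 for SHMT2, -0.16 and 0.10 for the MTHFD2/MTHFD1 ratio and -0.40 and 1.82 for the ALDH1L2/ALDH1L1 ratio. In OES100A9 against empty vector they ran between -0.03 and 0.05 for SHMT1 and -0.10 and 0.03 for MTHFD1. ALDH1L1 ran between -0.12 and 0.53 with the drug in OES100A9 cells, -0.10 and 0.55 in empty vector cells and -0.42 and 0.37 in the interaction. In OES100A9+Ada against empty vector+Ada MTHFD2 ran between -0.02 and 0.06, MTHFD1L between -0.12 and 0.11, and 1 to 3 members were lower. Between the lines 2 to 5 members were higher and 1 to 2 lower. Apart from fits with fewer samples or genes, the cause of these changes was not tested.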
